A study of Mus musculus with 33 samples.

Results

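The distal Jα segments are the Tcra joining segments from Traj52 to Traj1, and this report describes their three-way contacts as seen from 6 baits of the Tcra–Tcrd locus. Members were chosen by position alone, as pairs of 5 kb bins with at least 1 fragment in chr14:54165001-54220000 (mm10) and the other fragment anywhere in chr14:53740001-54300000. This gave 1177 of the 6328 bin pairs of the region, of which 1125 were seen in at least 1 library, against 5727 seen over the whole region. The 55 kb window consists of 11 bins, numbered here from bin 1 (Traj52 to Traj48, next to the proximal Jα segments) to bin 11 (Traj4 to Traj1, next to Trac). It holds 51 of the 60 annotated Traj segments, 5 of them pseudogenes, and it lies on the + strand. The 9 segments from Traj61 to Traj53 lie upstream of the window, so Traj55 to Traj53 were not counted as distal although they are downstream of Traj56.

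The data are 33 libraries of 3C-HTGTS, in which cells are fixed, cut with MboI and ligated, and products that begin at a primed bait fragment are sequenced. Reads that span the bait and 2 further fragments record three-way contacts, and the values here are numbers of such reads by the location of those 2 fragments. Double-positive (DP) thymocytes came from CBE+/+Rag1-/- mice (WT, 16 libraries) and from EACBE-/-Rag1-/- mice (9 libraries), which lack the CTCF-binding element immediately downstream of the enhancer Eα. Liver cells (8 libraries) also came from CBE+/+Rag1-/- mice. Every mouse used was Rag1-/- on the C57BL/6 background, so no cell could rearrange its Tcra locus. The DP thymocytes were produced by injecting mice at 3 weeks of age with 150 μg of an anti-CD3 antibody (2C11) and taking the thymus 10 days later, and the age of the liver donors was not given in the labels. Fixation was in 1% formaldehyde, and digestion used 200 U of MboI. The baits Eα, TEAp and Trav17–CBE2 had 3 WT, 3 EACBE-/- and 2 liver libraries each, INT2 had 3 WT and 2 liver libraries, Trdd2 had 3 WT libraries and a second Eα primer (Eα bait2) had 1. Gene expression was not measured in these libraries, so the identity of the cells and the deletion rest on the labels. In bulk libraries, a contact made in fewer cells and a contact made less often per cell cannot be told apart.

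The region held 15802 to 256778 reads in WT libraries, 9280 to 56636 in EACBE-/- libraries and 406 to 29910 in liver libraries, and reads with a distal Jα fragment numbered 2019 to 26572, 1345 to 12909 and 59 to 2663. A floor of 3 reads was 0.01 to 0.739% of the region's reads in liver, and floors and intervals cover counting error only. In the 22 libraries with deposited reads, a pair of aligned fragments was seen in 1.77 to 10.3 reads on average, with the highest value in Trav17–CBE2 WT replicate 3. The liver and INT2 libraries have no such reads, so this number is unknown for them. The Eα liver libraries stood apart in the share of reads in the deposited 5 kb counts that fell in the region. It was 728 of 2207 and 406 of 1040, against 41921 of 60028, 17006 of 23218 and 18606 of 26435 for Eα in WT. The 5 kb counts hold only part of the chromosome 14 pairs, for example 60028 of the 75174 deposited reads of Eα WT replicate 1. The shares below are of reads with both fragments in the region, and values for Eα in liver rest on that denominator.

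Jα segments are the acceptors of Vα-to-Jα recombination. Each is preceded by a recombination signal sequence, a heptamer next to the segment and a nonamer separated from it by a spacer, which the RAG recombinase reads. Primary rearrangement uses the proximal Jα segments, whose transcription and accessibility depend on the promoter TEAp, and successive secondary rearrangements then move downstream along the Jα array, replacing earlier joins with more distal Vα and Jα segments. Eα, located downstream of Trac, activates the whole array, and INT2 is a CTCF-bound element between the Vα and Tcrd segments.

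The segments at both ends of the window (Traj52 and Traj1) are shown with 3 segments that lie in often contacted MboI fragments, Traj47 and Traj46 in bin 2 and Traj3 in bin 11. The sequences are from mm10 (+ strand, RefSeq GRCm38.p6) and each starts 28 bases before the annotated segment, with the 7 bases at the heptamer position in capitals.
Traj52, chr14:54165288-54165381: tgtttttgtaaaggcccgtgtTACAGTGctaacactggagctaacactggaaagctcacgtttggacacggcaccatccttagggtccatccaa
Traj47, chr14:54171772-54171856: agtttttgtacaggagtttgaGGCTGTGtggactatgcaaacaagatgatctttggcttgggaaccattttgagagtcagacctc
Traj46, chr14:54172308-54172398: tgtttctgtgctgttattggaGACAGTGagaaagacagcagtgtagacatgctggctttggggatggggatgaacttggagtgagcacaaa
Traj3, chr14:54217264-54217357: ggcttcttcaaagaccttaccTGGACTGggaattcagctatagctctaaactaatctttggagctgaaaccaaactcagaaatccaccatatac
Traj1, chr14:54218786-54218842: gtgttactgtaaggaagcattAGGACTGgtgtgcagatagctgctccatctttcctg
The heptamer CACTGTG, searched on the + strand at this position, stood before 15 of the 51 distal segments and before none (0) of the 9 segments upstream. The last 3 letters were GTG before 43 of the 51 and the first 3 were CAC before 24. The same 7 letters occur at 0.0168% of the + strand positions of the region.

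In WT DP thymocytes, the distal Jα array took up the largest share of three-way contacts from Eα and the smallest from INT2. Reads with a distal Jα fragment made up 41.9, 42.3 and 42.8% of the region's reads in the 3 Eα libraries, and 36.8% in the Eα bait2 library. With the TEAp bait the shares were 19.4, 19.0 and 17.5%, and with Trdd2 14.5, 13.2 and 13.9%. With Trav17–CBE2 they were 12.8, 12.1 and 11.9%, and with INT2 9.81, 8.80 and 8.44%. No library of these 5 baits overlapped with those of the next bait in this order, apart from Eα bait2, which has a single library. The bait fragments lie 5.99 kb (Eα) and 7.26 kb (Eα bait2) downstream of the window, and 11.9 kb (TEAp), 42.8 kb (Trdd2), 98.9 kb (INT2) and 360 kb (Trav17–CBE2) upstream of it, so the order of shares was not that of the distances for Trav17–CBE2 and INT2.

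Contacts were not spread evenly along the array, and the gradient depended on the bait. The slope of log2 reads per bin on position was -0.321 ± 0.0249 log2 units per 10 kb with the TEAp bait (SD, n = 3), -0.359 ± 0.0135 with Trdd2 and -0.189 ± 0.0397 with INT2, so contacts fell from Traj52 towards Traj1 in all libraries of these upstream baits. With Trav17–CBE2, the farthest bait, the slopes were -0.0691, -0.183 and -0.115. With Eα the slopes over the whole array had no common direction, with values of 0.0517, -0.0331 and -0.0212 that lay on both sides of 0. With reads divided by the number of MboI fragments of each bin, which ranges from 8 to 20, they were all negative, at -0.0412, -0.126 and -0.114, and the means of the other baits were lower as well, from -0.216 with Trav17–CBE2 to -0.452 with Trdd2. The Eα bait2 library had a slope of -0.354, outside the range of the 3 libraries of the first Eα primer, although its fragment is next to that of the first. Among the 10 pairs of baits with 3 WT libraries, the slopes of 9 pairs did not overlap (exact two-sided permutation test, p = 0.1 for each, which is the lowest that 3 against 3 libraries allow, Benjamini-Hochberg adjusted p = 0.111). The pair that overlapped was INT2 and Trav17–CBE2 (exact p = 0.3, adjusted p = 0.3).

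The profiles had 2 high ends and a low middle. For Eα, bin 1 (Traj52 to Traj48) held 8.59, 9.68 and 9.07% of the region's reads and bin 2 (Traj47 to Traj43) held 5.74, 7.98 and 6.84%. At the other end, bin 10 (Traj7 to Traj5) held 8.07, 7.21 and 8.21% and bin 11 (Traj4 to Traj1) held 7.97, 7.37 and 7.76%. Bin 6 (Traj29 to Traj25) held 1.35% on average, and the 4 end bins together averaged 5.96 times its level. With Eα the reads in bins 10 and 11 were 0.983 ± 0.148 times those in bins 1 and 2 (SD, n = 3). Per MboI fragment the upstream end was higher, with 0.608% and 0.623% in bins 1 and 2 against 0.392% and 0.453% in bins 10 and 11. With TEAp the upstream end was favored, with 5.64% of reads in bin 1, 0.599% in bin 6 and 1.504% in bin 11, and a ratio of 0.373. The ratio was 0.304 with Trdd2, 0.611 with INT2, 0.710 with Trav17–CBE2 and 0.279 in the Eα bait2 library. Bin 6 was the lowest of the 11 bins in 23 of the 25 DP libraries. This bin also has the fewest MboI fragments, 8 against 10 to 20 in the others, and with reads divided by the number of MboI fragments it was lowest in 14 of the 25.

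**Figure D1:**
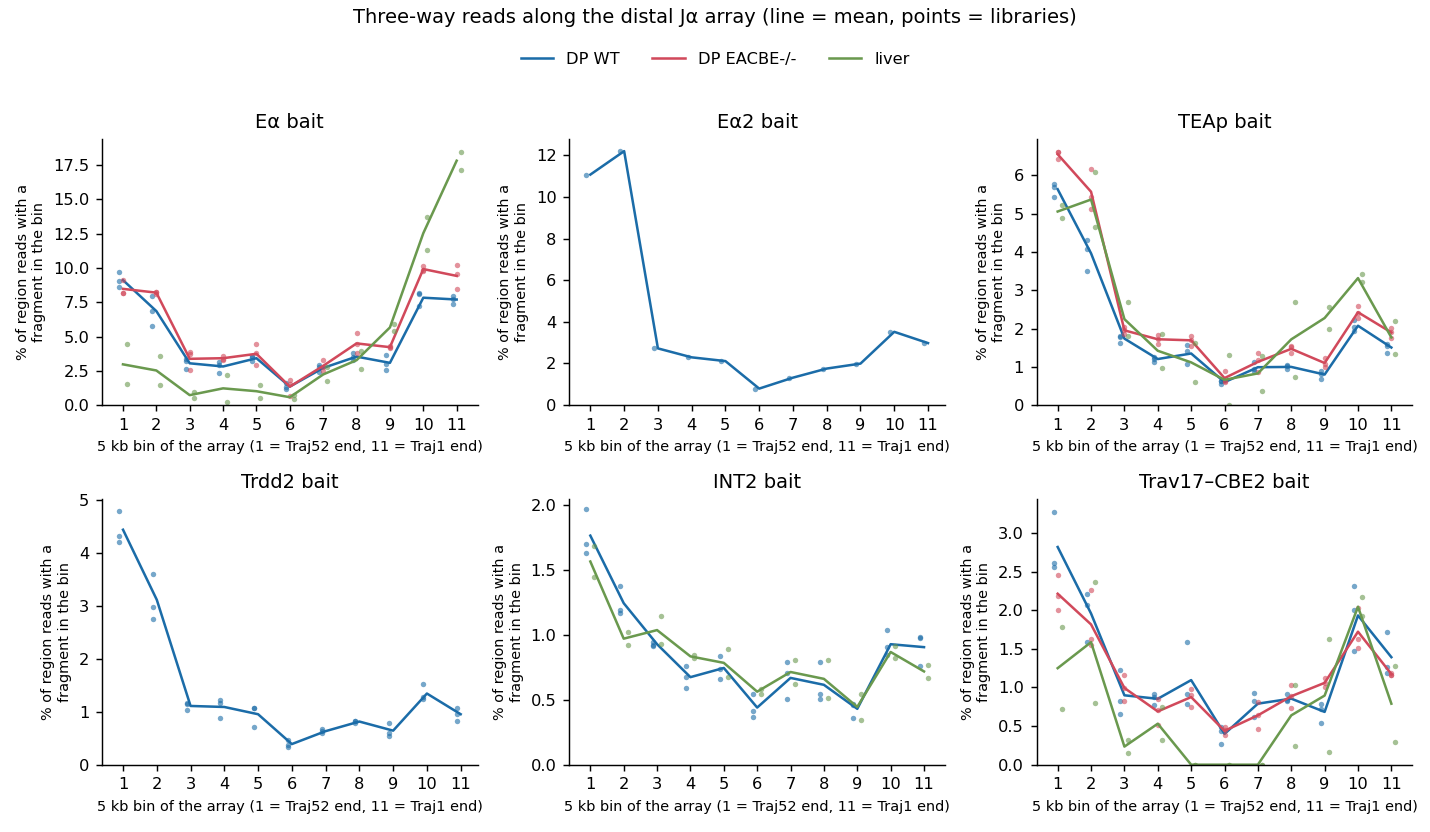
Share of the region's reads (%, y axis) with a fragment in each of the 11 bins of 5 kb from Traj52 (bin 1) to Traj1 (bin 11), for each of the 6 baits. Lines are group means and points single libraries of WT DP thymocytes (blue), EACBE-/- DP thymocytes (red) and liver cells (green); bin 6 is low for every DP group, and in liver the Eα profile goes from 2.97% in bin 1 through 0.576% in bin 6 to 17.8% in bin 11.

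Measured on each side of bin 6, a split made after this bin was seen to be low, the reads per bin fell and then rose in the WT mean of each bait. From bin 1 to bin 6 the mean slopes were -0.967 log2 units per 10 kb with Eα, -1.22 with TEAp, -1.30 with Trdd2, -0.730 with INT2 and -0.969 with Trav17–CBE2. From bin 6 to bin 11 they were 0.971, 0.543, 0.535, 0.356 and 0.722 in the same order of baits. Per MboI fragment the downstream arm did not rise with INT2, which had 0.0551% in bin 6 and 0.0533% in bin 11, and was small with TEAp (0.0749 and 0.0885%) and Trdd2 (0.0486 and 0.0560%).

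Individual MboI fragments of the array stood out, and those of the upstream end recurred between baits. The sequences of the 3 most shared ones are printed with the cut site GATC in capitals (mm10, + strand, RefSeq GRCm38.p6), the first directly downstream of Traj47, the second holding the 3' end of Traj47 and the third between Traj51 and Traj50.
Fragment downstream of Traj47, chr14:54171877-54171980: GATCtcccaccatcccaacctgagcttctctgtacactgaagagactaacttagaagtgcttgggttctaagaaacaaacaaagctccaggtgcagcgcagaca
Fragment with the end of Traj47, chr14:54171819-54171876: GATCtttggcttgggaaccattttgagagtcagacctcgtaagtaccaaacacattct
Fragment between Traj51 and Traj50, chr14:54167322-54167475: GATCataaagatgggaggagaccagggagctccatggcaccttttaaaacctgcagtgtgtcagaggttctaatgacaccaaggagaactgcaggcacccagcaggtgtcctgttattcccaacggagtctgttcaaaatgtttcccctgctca
The 104 bp fragment downstream of Traj47 ranked first of all distal Jα fragments with the Eα, Eα bait2, TEAp and Trav17–CBE2 baits and second with Trdd2. It took 3.84% of the distal Jα fragment reads with Eα, 10.0% with Eα bait2, 4.98% with TEAp, 4.40% with Trdd2 and 4.50% with Trav17–CBE2. In the Eα libraries this was 17557, 29343 and 23487 reads per 1000000 of the region, and in replicate 1 the second-ranked fragment, chr14:54217006-54217107, had 17986 and lay above it. These reads came from 141 to 154 distinct pairs of fragments per Eα library. The 154 bp fragment between Traj51 and Traj50 ranked first with Trdd2 (4.45%) and was among the 5 highest of 4 baits. The 58 bp fragment with the end of Traj47 was among the 5 highest of 4 baits as well, with 2.35% for Eα and 5.05% for Eα bait2. With Eα, fragments at the downstream end also ranked among the first 5, with 2.44% at chr14:54217006-54217107 in bin 11, 2.37% at chr14:54213086-54213245 in bin 10 and 2.33% at chr14:54206051-54206191 in bin 9. With Trav17–CBE2, the fragment that holds Traj3 (chr14:54217113-54217554) was among the first 5 as well. The window has 140 MboI fragments with a median length of 302.5 bp, and 133 of them were seen.

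The partner of a distal Jα fragment, meaning the location of the other fragment of the same read, was most often another distal Jα fragment in the Eα libraries of WT cells. Of the distal Jα reads, 22.7% had both fragments in the same 5 kb bin and 21.6% had them in 2 different distal Jα bins. The proximal V region, from Trav17 to the INTs, was the partner in 16.4, 15.0 and 18.6%, the stretch with Trac and Eα in 10.8, 11.4 and 10.5%, TEAp and the proximal Jα segments in 7.96, 8.19 and 8.25%, the Tcrd segments in 7.15% on average and the flank downstream of Eα in 5.61, 5.75 and 5.20%. The leading partner bins outside the array were chr14:54220001-54225000 with Trac (8.84%) and chr14:54160001-54165000 with Traj55 to Traj53 (4.44%). Partners were arranged along the array. Reads that joined distal Jα to TEAp and the proximal Jα segments fell by 0.441 log2 units per 10 kb from bin 1 to bin 11, those joined to Trac and Eα rose by 0.219, and those joined to the proximal V region had a slope of -0.00468 ± 0.0966 (SD, n = 3).

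With the other baits, the partner class outside the array with the largest total share was the proximal V region (TEAp and Trav17–CBE2), the Tcrd segments (Trdd2) or the INTs (INT2). The classes differ in width, with the proximal V region the widest and the INTs among the narrowest, and their shares were not divided by width. TEAp reads with a distal Jα fragment had their other fragment in the proximal V region in 18.9%, in the INTs in 15.1% and in the Tcrd segments in 16.0%, and the bin chr14:54060001-54065000, next to INT2, led with 7.58%. With Trdd2 the Tcrd segments took 26.0%, with Trav17–CBE2 the proximal V region took 30.8% and the V region upstream of Trav17 14.2%, and with INT2 the INTs took 75.4%, of which 69.2% of distal Jα reads fell in the bin of the bait itself. Pairs within 1 distal Jα bin made up 18.1% with TEAp, 18.6% with Trdd2, 18.8% with Trav17–CBE2 and 4.83% with INT2. Partners in TEAp and the proximal Jα segments declined along the array with each of these baits, most with Trdd2 (-1.14 ± 0.307 log2 units per 10 kb, SD, n = 3), and by 0.628 with TEAp.

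**Figure D2:**
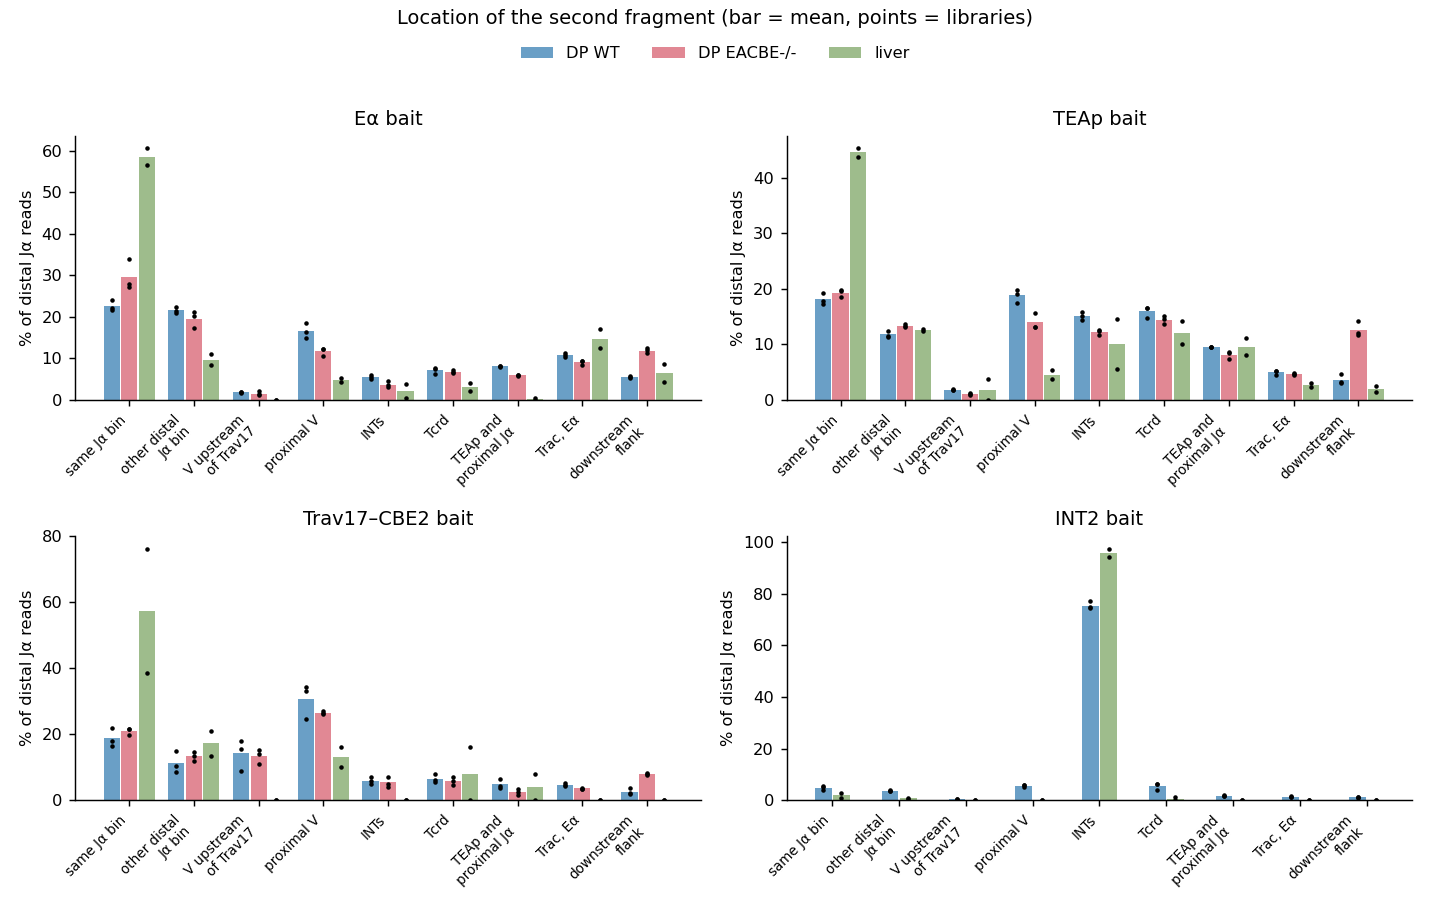
Location of the second fragment of reads with a distal Jα fragment, as % of those reads (y axis), for the Eα, TEAp, Trav17–CBE2 and INT2 baits. Bars are group means and points single libraries of WT (blue), EACBE-/- (red) and liver (green); with Eα the flank downstream of Eα rises from 5.52% in WT to 11.9% in EACBE-/- cells, and in liver 58.6% of the reads lie within 1 distal Jα bin.

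In EACBE-/- DP thymocytes, contacts of distal Jα with the flank downstream of Eα were higher from all 3 baits compared, and those within the array were higher from Eα and TEAp. Of the distal Jα reads, the downstream flank took 5.61, 5.75 and 5.20% in WT and 12.03, 12.4 and 11.3% in EACBE-/- cells with Eα. With TEAp it took 4.70, 3.10 and 3.24% against 11.7, 12.01 and 14.2%, and with Trav17–CBE2 2.27, 3.71 and 1.80% against 8.33, 7.65 and 8.03%. Every EACBE-/- library lay above every WT library. As a share of the region's reads these contacts rose 2.53-fold with Eα (log2 fold change 1.34 ± 0.120 SE, edgeR quasi-likelihood test with Benjamini-Hochberg adjusted p = 1.27e-06), 4.23-fold with TEAp (2.08 ± 0.121, adjusted p = 3.94e-35) and 2.85-fold with Trav17–CBE2 (1.51 ± 0.300, adjusted p = 0.00984). The flank rose with other partners too. With Eα its log2 fold change was 1.92 with TEAp and the proximal Jα segments and 1.74 with the V region upstream of Trav17, both above distal Jα. With TEAp it was 1.49 with the Tcrd segments and 0.97 with the proximal V region, below distal Jα. With Trav17–CBE2 it was 0.55 with the proximal V region. With Trac and Eα it was 0.17, 0.08 and -0.33 in the same order of baits, not called. Contacts between distal Jα fragments rose 1.31-fold with Eα (0.39 ± 0.0411, adjusted p = 4.65e-06) and 1.35-fold with TEAp (0.44 ± 0.0746, adjusted p = 9.99e-08), while with Trav17–CBE2 their log2 fold change was 0.04 ± 0.126 (adjusted p = 0.761).

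These were the members called among the 8 pairs of classes that contain distal Jα, 2 of 8 with Eα, 2 of 8 with TEAp and 1 of 8 with Trav17–CBE2. Of all 36 class pairs of the region, 55.6% were called in either direction with Eα, 63.9% with TEAp and 25% with Trav17–CBE2. All calls with distal Jα were higher. Of all 36, 8, 8 and 4 were called higher in the same order of baits, and 12, 15 and 5 lower, against 0 lower with distal Jα. With Eα, the median log2 fold change of the 8 was -0.03 against -0.28 over all 36, and with TMM scaling the median over all 36 moved to 0.08 and 4 of the 8 were called, all higher. With TEAp the medians were 0.13 and -0.25, and with TMM the median over all 36 moved to -0.003 and 6 of the 8 were called, all higher. Other distal Jα partners did not pass the test in EACBE-/- cells. With Eα, the proximal V region had a log2 fold change of -0.27 ± 0.115 (adjusted p = 0.0544) and TEAp with the proximal Jα segments -0.21 ± 0.133 (adjusted p = 0.193), and the groups did not overlap in either. With Trav17–CBE2, TEAp with the proximal Jα segments had -1.03 ± 0.361 (adjusted p = 0.0613). With TEAp, the INTs had 0.00 ± 0.0994 (adjusted p = 0.984). Without Trav17–CBE2 WT replicate 1, 3 of the 8 were called.

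The gain of the downstream flank as a partner ran along the whole array. The mean share of a bin's reads with a partner in that flank was higher in EACBE-/- than in WT cells in 11 of 11 bins with each of the 3 baits. With TEAp it ranged from 1.76% (bin 6) to 5.23% (bin 5) in WT and from 9.69% (bin 9) to 16.3% (bin 7) in EACBE-/- cells, and every EACBE-/- library exceeded every WT library in 10 bins. With Eα the range was 3.14% (bin 9) to 7.46% (bin 6) in WT and 6.28% (bin 9) to 15.2% (bin 3) in EACBE-/- cells, with no overlap in 6 bins. With Trav17–CBE2 it was 0.113% (bin 8) to 5.81% (bin 4) against 2.70% (bin 6) to 14.1% (bin 5), with no overlap in 5 bins. The same counts were not made for bins outside the array. Because the flank rose with other partner classes too, these counts do not show a trait particular to distal Jα.

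**Figure D3:**
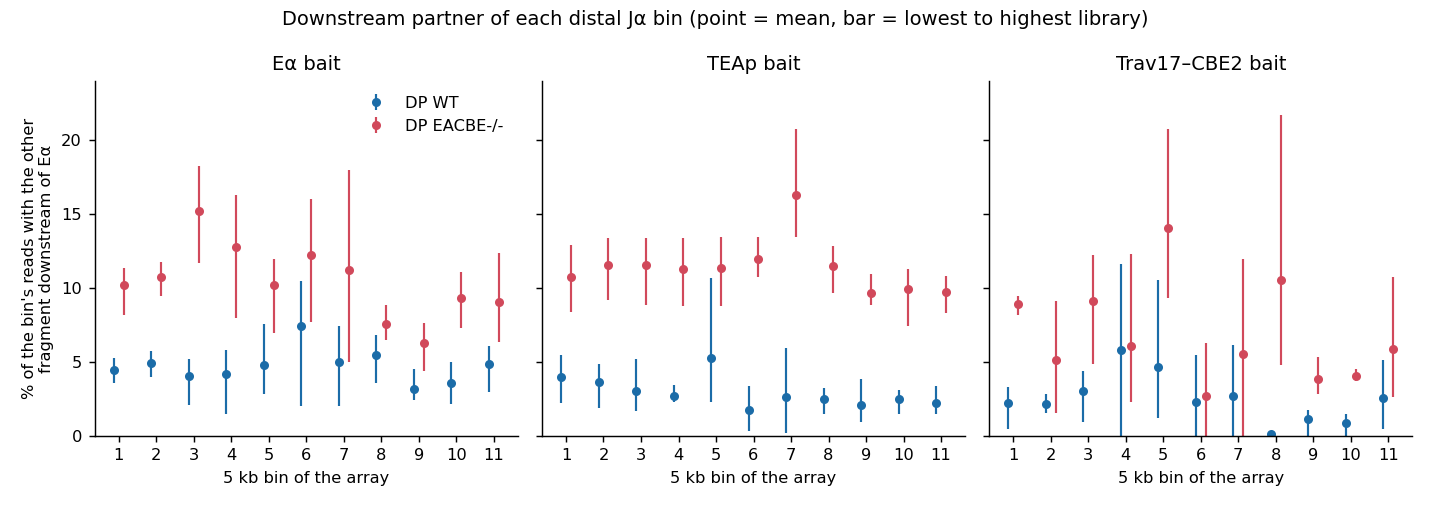
Share of each distal Jα bin's reads (%, y axis) whose other fragment lies downstream of Eα, by bin from Traj52 (bin 1) to Traj1 (bin 11), for Eα, TEAp and Trav17–CBE2. Points are means of 3 libraries and bars run from the lowest to the highest library of WT (blue) and EACBE-/- (red); the EACBE-/- mean is higher in every bin of each panel.

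Within the flank, a single 5 kb bin gained most. The bin chr14:54235001-54240000, which holds the 3' end of Dad1 (chr14:54235479-54254104), was the partner of 1.33% of distal Jα reads in WT and 4.44% in EACBE-/- cells with Eα, and moved from rank 10 to rank 2 of the partner bins outside the array. With TEAp it went from 0.821 to 5.24% (rank 21 to rank 2) and with Trav17–CBE2 from 0.975 to 2.87% (rank 20 to rank 4). Single bin pairs passed the test mostly with this bin. Of the tested bin pairs with a distal Jα fragment, 5 of 605 were called with Eα and 11 of 735 with TEAp, all higher in EACBE-/- cells, against 0.595% and 1.14% of all bin pairs tested. Of those called, 3 with Eα and 7 with TEAp had chr14:54235001-54240000 as partner, and 2 and 1 lay within 1 distal Jα bin. The pair with bin 2 (Traj47 to Traj43) had 15, 268 and 417 reads per 1000000 with TEAp in WT and 1642, 2430 and 3058 in EACBE-/- cells (log2 fold change 3.32 ± 0.448, adjusted p = 1.56e-10). With Eα the same pair had 1312, 470 and 215 against 4526, 2780 and 2873 (2.286 ± 0.608, adjusted p = 0.0341), a call that was lost when any library but WT replicate 1 was left out. The pair with bin 3 (Traj42 to Traj39) had 0, 294 and 53.7 with Eα in WT and 754, 2245 and 3232 in EACBE-/- cells (4.29 ± 0.962, adjusted p = 0.00502), and lost its call without WT replicate 1 or 3 or EACBE-/- replicate 3. The groups did not overlap in these pairs. Without Eα WT replicate 1 or EACBE-/- replicate 3, 1 of the 5 Eα bin pairs was called, and without any 1 of the EACBE-/- libraries 6 were called with TEAp. With Trav17–CBE2, 0 of 379 bin pairs were called by edgeR's test and by DESeq2, 33 had an unadjusted p under 0.05, and 0.0431% of all bin pairs of that bait were called.

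The share of distal Jα in the region's reads was higher in EACBE-/- than in WT cells with the baits at both ends of the array and not with Trav17–CBE2. With Eα it was 47.6, 50.5 and 51.1% against 42.3 ± 0.411% in WT (SD, n = 3), a difference of 7.40 percentage points, and with TEAp 22.8, 23.3 and 23.2% against 18.6 ± 0.971%, a difference of 4.47 points that was 2.90 points of all pairs in the 5 kb counts. The groups did not overlap in either (two-sided exact permutation test, p = 0.1, which is the lowest value possible, adjusted p = 0.14 over 7 comparisons of shares). With Trav17–CBE2 it was 10.3, 11.96 and 10.8% against 12.3 ± 0.464% (exact p = 0.2, adjusted p = 0.233). The gradients of the 2 genotypes overlapped with all 3 baits. The slopes were 0.0805, 0.0258 and 0.0730 log2 units per 10 kb with Eα in EACBE-/- cells (difference 0.0606, exact p = 0.2, adjusted p = 0.35), -0.314 ± 0.0243 with TEAp (difference 0.00618, exact p = 0.8) and -0.0767 ± 0.00913 with Trav17–CBE2 (difference 0.0459, exact p = 0.3).

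By bin, 3 of the 11 bins were called higher in EACBE-/- cells with Eα, bins 9 to 11. Of all bins of the region 27.3% were called in either direction, and 9 of 110 were called higher. With TMM scaling 7 of the 11 were called and with DESeq2 5, all higher. These settings moved the median log2 fold change over all bins from -0.44 to -0.11 and -0.08, and that of the 11 bins from 0.26 to 0.57 and 0.60. Bins 2, 4 and 8, which did not pass the test, had log2 fold changes of 0.26 ± 0.115, 0.28 ± 0.141 and 0.35 ± 0.135, close to those of the called bins. Bin 10 (Traj7 to Traj5) held 8.07, 7.21 and 8.21% of the region's reads in WT and 9.83, 10.2 and 9.78% in EACBE-/- cells (log2 fold change 0.34 ± 0.0909, adjusted p = 0.0135). Bin 9 (Traj14 to Traj8) rose by 0.45 ± 0.142 (adjusted p = 0.0277) and bin 11 (Traj4 to Traj1) by 0.29 ± 0.0973 (adjusted p = 0.0372), and both lost their call without pairs within a single bin, where the log2 fold changes were 0.52 and 0.28. Without WT replicate 3 or EACBE-/- replicate 3, 1 bin was called, and bin 10 kept its call without any library. With TEAp 7 of the 11 bins were higher, spread over the array, against 39.1% of all bins called in either direction and 18 of 110 called higher. Bin 2 (Traj47 to Traj43) held 4.07, 4.32 and 3.499% in WT and 5.11, 5.44 and 6.17% in EACBE-/- cells (0.49 ± 0.0875, adjusted p = 9.41e-05). Bin 4 (Traj38 to Traj34) rose by 0.52 ± 0.109 and bin 8 (Traj19 to Traj15) by 0.56 ± 0.117 (adjusted p = 0.000535 for both), and without WT replicate 3 the count was 3. With Trav17–CBE2, 0 of the 11 bins were called by edgeR's test and by DESeq2 (2 had an unadjusted p under 0.05), against 19.1% of all bins, and the largest change was in bin 9 (0.62 ± 0.264, adjusted p = 0.0816). The median log2 fold change of the 11 bins was 0.26 with Eα, 0.33 with TEAp and -0.17 with Trav17–CBE2, against -0.44, -0.10 and 0.00 over all bins.

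**Figure D4:**
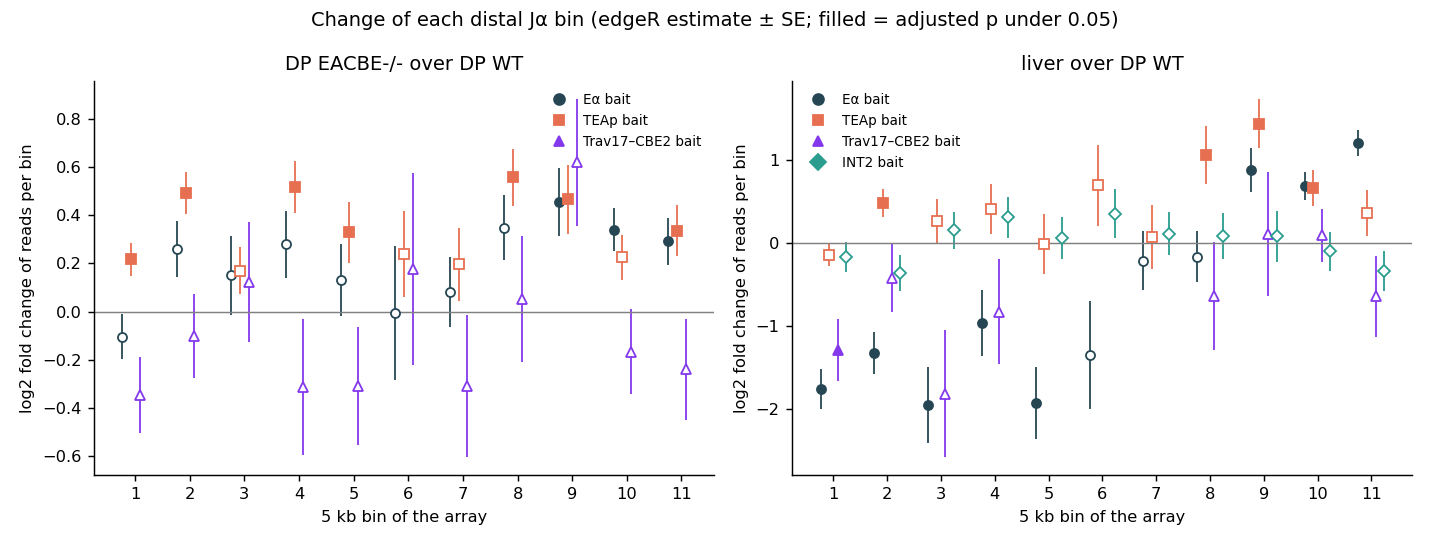
Log2 fold change (y axis) of each distal Jα bin from Traj52 (bin 1) to Traj1 (bin 11), for EACBE-/- over WT (left) and liver over WT (right), by bait. Points are estimates of edgeR's fit with bars of 1 SE, filled where the adjusted p is under 0.05, and bins at 0 reads in liver are left out; with Eα the liver values go from -1.76 in bin 1 to 1.21 in bin 11.

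In liver cells, contacts from the Eα bait were shifted towards the downstream end of the distal Jα array. The upstream end was still above the middle, with 2.97% in bin 1, 2.52% in bin 2 and 0.576% in bin 6. The slopes over the whole array were 0.640 and 0.693 log2 units per 10 kb in liver against -0.00085 ± 0.0459 in WT DP thymocytes (SD, n = 3), a difference of 0.668 (two-sided exact permutation test, p = 0.1, which is the lowest that 3 against 2 libraries allow, adjusted p = 0.233 over 7 comparisons of slopes). Bin 11 (Traj4 to Traj1) held 17.2 and 18.5% of the region's reads in liver against 7.97, 7.37 and 7.76% in WT, a 2.31-fold rise (1.21 ± 0.153, edgeR adjusted p = 1.79e-12). Bin 1 (Traj52 to Traj48) held 1.51 and 4.43% against 9.11% (-1.76 ± 0.238, adjusted p = 3.04e-11), a call that was lost without pairs within a single bin. Bin 10 lost its call without liver replicate 1, bin 9 without that library or WT replicate 3, and bin 4 without liver replicate 2 or WT replicate 1 or 3. In liver 60.0% of the sum over the 11 bins lay in bins 10 and 11 and 10.9% in bins 1 and 2, against 30.2 and 31.0% in WT. With Eα 8 of the 11 bins were called, bins 9 to 11 higher and bins 1 to 5 lower, against 55.5% of all bins of the region. These folds and calls rest on the region's reads as library size, and bins were not fitted with all pairs in the 5 kb counts. With those pairs as the denominator, the share of the whole array differed by -13.6 points in liver, so the rises of bins 9 to 11 may depend on this choice.

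With the other baits, the slope over the whole array differed less between liver and WT. With TEAp the slopes were -0.159 and -0.226 against -0.321 in WT (difference 0.128, exact p = 0.1, adjusted p = 0.233). There 4 of 11 bins were called, all higher, against 40.9% of all bins called in either direction and 11 of 110 called higher. Bin 9 (Traj14 to Traj8) was 2.71-fold higher (1.44 ± 0.297, adjusted p = 0.00175), and leaving out WT replicate 1, 2 or 3 reduced the count to 2, 1 and 1 while leaving out liver replicate 2 raised it to 7. With INT2 the slopes were -0.197 ± 0.000523 (SD, n = 2) against -0.189 ± 0.0397 in WT (difference -0.00871, exact p = 0.7), and 0 of 11 bins were called by edgeR's test (0 at an unadjusted p under 0.05) against 62.7% of all bins. With TMM scaling or DESeq2, 9 of these 11 bins were called higher for INT2. These settings moved the median over all bins from -0.92 to -0.33 and -0.20, and that of the 11 bins from 0.08 to 0.67 and 0.79. With Trav17–CBE2 the mean slope was 0.0292 in liver against -0.123 in WT (difference 0.152, exact p = 0.1, adjusted p = 0.233). Over bins 6 to 11, a split chosen after seeing the data, the difference was 1.24, against 0.868 with Eα and 0.614 with TEAp. The Trav17–CBE2 liver libraries held 62 and 59 distal Jα reads, with 0 in bins 5, 6 and 7, so these slopes rest on few reads. There 3 of 11 bins were called lower against 31.8% of all bins. These were bin 1 (-1.29 ± 0.373, adjusted p = 0.0142) and bins 5 and 7, which had 0 reads in liver and were at least 7.02-fold and at least 5.06-fold lower against a floor of 3 reads over both libraries. Bin 1 lost its call without WT replicate 1 or 2 or liver replicate 1, and without WT replicate 1 the count was 1 of 11.

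The share of distal Jα in the region's reads differed in liver by bait. With reads of the region as the denominator, it was 47.4 and 44.8% with Eα (3.78 points above WT) and 26.0 and 19.8% with TEAp (4.23 points above), and 4.97 and 8.74% with Trav17–CBE2, 5.43 points below WT (exact two-sided permutation test, p = 0.1 for each, adjusted p = 0.14). Liver and WT libraries did not overlap with these 3 baits. With INT2 it was 8.90 and 9.29% against 9.02 ± 0.713% in WT, and the groups overlapped (exact p = 0.9). With all pairs in the 5 kb counts as the denominator, the Eα difference turned to -13.6 points and the TEAp difference was 0.466, and without pairs within a single bin they were 13.2 and 9.89. Leaving out 1 library at a time, the TEAp difference ranged from 1.16 points (without liver replicate 1) to 7.31 (without liver replicate 2).

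In liver, a larger share of distal Jα reads lay within 1 bin with Eα, TEAp and Trav17–CBE2 but not with INT2, and contacts of the array with the proximal V region were lower with every bait. With Eα, 60.6 and 56.6% of distal Jα reads had both fragments in the same bin, against 21.8, 24.03 and 22.2% in WT. With TEAp the values were 45.3 and 43.8% against 18.1%, and with Trav17–CBE2 38.7 and 76.3% against 18.8%. With INT2 they were lower in liver, at 3.04 and 1.10% against 3.93, 5.04 and 5.53% in WT. Among reads with both fragments in the array, those within 1 bin made up 85.8% with Eα in liver against 51.2% in WT, and 5.16% against 18.1% joined bins 5 kb apart. Bins 50 kb apart, the ends of the array, made up 1.19% in WT and 0.603% in EACBE-/- cells. With TEAp 78.0% lay within 1 bin in liver against 60.5% in WT. Liver and WT overlapped in this share with INT2 (56.5 and 81.8% in liver, 50.4 to 60.2% in WT). They also overlapped with Trav17–CBE2 (64.9 and 84.9% in liver, 52.7 to 68.0% in WT). The authors had removed fragments that follow each other directly in the genome, so the same-bin pairs join fragments that are not neighbors.

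**Figure D5:**
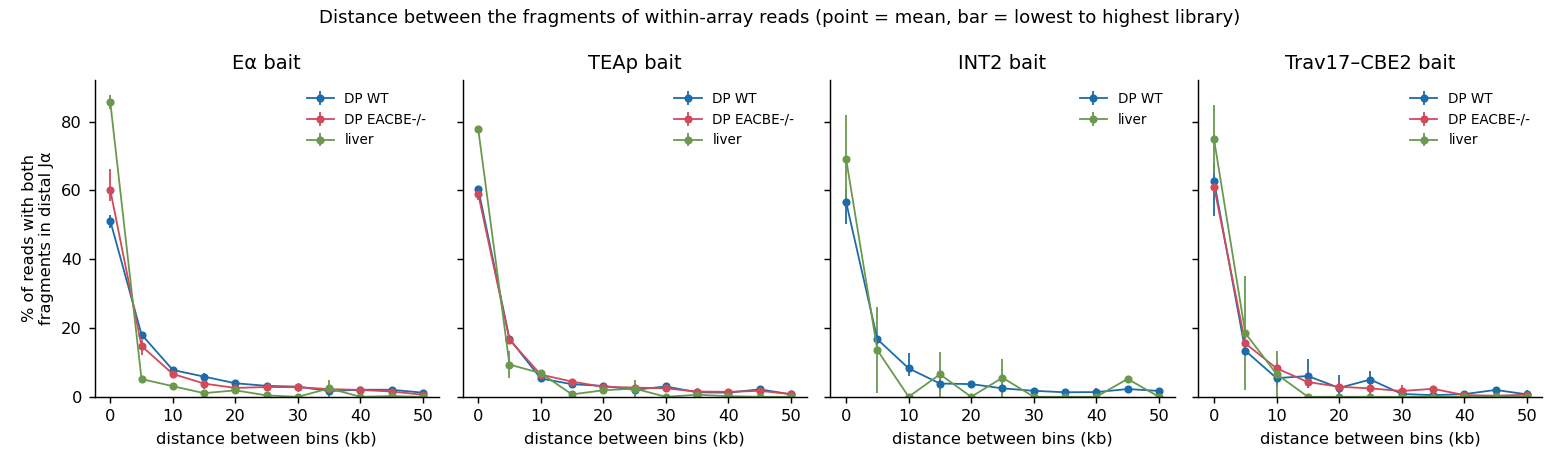
Share of reads with both fragments in the distal Jα array (%, y axis) by the distance between their bins (kb, x axis; 0 is the same bin), for Eα, TEAp, Trav17–CBE2 and INT2. Points are group means and bars run from the lowest to the highest library of WT (blue), EACBE-/- (red) and liver (green); with Eα the same-bin share is 51.2% in WT, 60.2% in EACBE-/- cells and 85.8% in liver.

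With Eα, 5 of the 8 class pairs with distal Jα were called in liver, against 69.4% of all class pairs. The proximal V region as a partner fell to 5.22 and 4.40% of distal Jα reads (log2 fold change -1.63 ± 0.324, adjusted p = 7.83e-05), and TEAp with the proximal Jα segments was seen in 1 read of 1134, a ratio to WT of 0.0256 with an exact 95% interval of 0.000648 to 0.142. The V region upstream of Trav17 had 0 of 1134 reads and was at least 2.96-fold lower, and the INTs fell by 1.54 ± 0.613 (adjusted p = 0.0266), a call lost without WT replicate 2 or liver replicate 1. Contacts within the array were 1.69-fold higher (0.75 ± 0.0676, adjusted p = 1.00e-11). That rise was 0.09 on the log2 scale and not called without pairs within a single bin, and -0.24 with all pairs in the 5 kb counts as the library size. The pair of bin 11 with itself had 14456, 20110 and 15963 reads per 1000000 in WT and 101648 and 142857 in liver (2.85 ± 0.479, adjusted p = 6.08e-07), and lost its call without WT replicate 2.

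With TEAp, 2 of the 8 class pairs were called in liver, against 50% of all class pairs. Contacts within the array were 2.396-fold higher (1.26 ± 0.151, adjusted p = 0.000106) and the proximal V region fell by 1.55 ± 0.237 (adjusted p = 0.000329). TEAp with the proximal Jα segments had a log2 fold change of 0.26 ± 0.211 (adjusted p = 0.298). With Trav17–CBE2, 5 of the 8 were called, all lower, against 63.9% of all class pairs. The proximal V region fell by 2.18 ± 0.444 (adjusted p = 0.000386), and 4 partners had 0 of 1922 reads, so that contacts with the V region upstream of Trav17 were at least 11.1-fold lower, those with the INTs at least 4.73-fold, those with Trac and Eα at least 3.77-fold and those with the downstream flank at least 2.04-fold. The call of the downstream flank was lost without WT replicate 2 or either liver library. With INT2, 8 of the 8 were called, 1 higher and 7 lower, against 83.3% of all class pairs, and 5 of the 8 without WT replicate 3. The INTs rose by 0.36 ± 0.106 (adjusted p = 0.0202), a call lost without WT replicate 2 or 3 or liver replicate 2. They took 95.8% of distal Jα reads in liver against 75.4% in WT. The bin of the bait itself took 95.5% in liver against 69.2% in WT. The neighboring INT bin chr14:54060001-54065000 went the other way, with 0.263% in liver against 5.32% in WT. The proximal V region fell by 4.34 ± 0.289 (adjusted p = 0.000103) and Trac with Eα was seen in 3 of 42655 reads, a ratio of 0.0560 with an exact 95% interval of 0.0116 to 0.164. Contacts within the array fell by 1.51 ± 0.243 with INT2 (adjusted p = 0.00243), but turned to 0.01 with TMM scaling, which moved the median over all class pairs from -3.06 to -1.52, and to 0.32 with DESeq2.

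Few single bin pairs passed the test in liver. With Eα 4 of 485 were called and with TEAp 17 of 568, all higher in liver, against 1.31% and 2.39% of all bin pairs, and 2 and 11 of them had a library at 0. With TMM scaling the direction of the calls turned, to 0 higher and 29 lower with Eα and to 2 higher and 20 lower with TEAp. With Trav17–CBE2 1 of 305 was called, higher, against 1.23%, and with INT2 9 of 312, 1 higher and 8 lower, against 6.64%. With TMM scaling the INT2 calls were 8 higher and 7 lower. The pair of bin 9 with itself had 1232, 1990 and 1331 reads per 1000000 with TEAp in WT and 10801 and 14670 in liver (3.04 ± 0.540, adjusted p = 0.000279), and lost its call without any 1 of the WT libraries. With INT2, the pair of bin 2 (Traj47 to Traj43) with chr14:54060001-54065000 had 981, 954 and 751 in WT and 0 in both liver libraries, at least 12.7-fold lower against the floor of 3 reads over the group. Without INT2 WT replicate 2, 0 bin pairs were called with that bait. The count was 0 with Eα and 0 with TEAp without the WT replicate 2 of those baits, and it rose to 9 with Eα without either liver library and to 28 with TEAp without liver replicate 2.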

How the data were processed

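Three-way contacts were measured by 3C-HTGTS in 33 libraries, which the study describes as independent experiments. The authors trimmed reads with fastp 0.20.0 and cutadapt 1.18, merged them, split them at MboI sites, aligned them to mm10 with Bowtie2 2.4.5, removed consecutive fragments and kept reads in which the bait was followed by 2 fragments. The deposited counts are raw numbers of reads per pair of 5 kb bins, and the deposited reads list the 2 fragments. A fragment belongs to the bin of its end coordinate. Raw counts were used for 30 libraries and binned reads for Trdd2, and the fragment positions of 22 libraries were used. The authors' normalized matrices were not used. Library size was the number of reads with both fragments in the region.

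Reads per class pair (8 classes, 36 pairs), per bin and per bin pair (at least 10 reads over the libraries compared) were tested with edgeR 4.0.16 (quasi-likelihood, R 4.3.3) over the whole region, each bait alone, with Benjamini-Hochberg adjustment over all features and a threshold of 0.05. Shares and slopes (log2 of reads + 0.5, per library) were compared with exact two-sided permutation tests. Tables were made in Python 3.11.15 (numpy 2.4.6, pandas 2.3.3), tests in scipy 1.17.1 and plots in matplotlib 3.10.9. Alternatives were TMM normalization, DESeq2 1.42.0, distinct pairs of fragments (not in liver), no pairs within a bin, no filter, 10 kb bins, a pseudocount of 1, reads per MboI fragment, all pairs in the 5 kb counts as denominator, a replicate block and leaving out each library. Slopes over bins 1 to 6 and 6 to 11 were chosen after seeing the data. All 11 bins and 8 partner classes are described. Of bin pairs, up to 3 per comparison with the largest log2 fold change among those called without overlap of the groups were eligible to be named, and of fragments the 5 with the most reads per bait in WT. The members and classes were chosen with earlier results of these data known.

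On simulated counts, 4-fold changes of class pairs were recovered in 50 to 100% and of bins in 60 to 100%. For bin pairs, 4-fold changes were recovered in 0 to 10.5% and 16-fold changes in 12 to 45.5%.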

Additional observations from a re-analysis of the deposited data

Results flagged for a closer look

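The share of distal Jα in the region's reads moved in opposite directions between baits in liver. It was 3.78 percentage points above the WT mean with Eα and 4.23 points above with TEAp, with both liver libraries above every WT library, and it fell by 5.43 points with Trav17–CBE2, with both liver libraries below every WT library. The difference between the baits was not tested. With all pairs in the 5 kb counts as the denominator, Eα and Trav17–CBE2 moved the same way, by -13.6 and -3.72 points, and TEAp by 0.466.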

How the results depend on the processing

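Of 1516 values of single class pairs, bins and named bin pairs under an alternative, 1262 kept their side of the threshold and, where called, their direction. Another 157 lost a call, 82 gained one and 15 changed sign with a call in the main fit or the alternative. Changes of sign between values that were called in neither fit are among the 1262. The rises of distal Jα with the downstream flank in EACBE-/- cells (Eα, TEAp and Trav17–CBE2) and within the array (Eα and TEAp) kept their call under all alternatives run. Depth limits single bin pairs most, above all in liver, where a library of Eα, TEAp or Trav17–CBE2 had as few as 59 distal Jα reads. Where values changed with a setting, the cause was not tested.

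Under the alternatives only members were counted, so the share called over all features is not known for those settings. Counts of members called changed as follows in EACBE-/- against WT. Class pairs numbered 4 with TMM for Eα, 6 with TMM, 4 with DESeq2 and 4 with distinct pairs for TEAp, and 2 with distinct pairs and 3 with all pairs in the 5 kb counts as library size for Trav17–CBE2. Bins numbered 7 with TMM and 5 with DESeq2 for Eα and 4 with DESeq2 for TEAp. Bin pairs numbered 3 with DESeq2, 3 without pairs within a bin and 3 without the filter for Eα, and 31 with DESeq2 and 19 with distinct pairs for TEAp. In liver against WT, class pairs numbered 4 with DESeq2 and 5 without pairs within a bin for TEAp, and 4 with TMM and 4 with DESeq2 for INT2. Bins numbered 4 without pairs within a bin for Eα, and 9 with TMM, 9 with DESeq2 and 2 without pairs within a bin for INT2. Bin pairs numbered 29 with TMM, 22 with DESeq2 and 7 without pairs within a bin for Eα, 2 with TMM, 2 without pairs within a bin, 2 without the filter and 0 with 10 kb bins for Trav17–CBE2, and 15 with TMM, 16 with DESeq2, 15 without pairs within a bin and 4 with 10 kb bins for INT2.

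Whether replicate numbers pair the libraries was not settled. No comparison had a correlation over 0.1 in every pair (from -0.487 to 0.267 over all comparisons). The best match had the same replicate number for 2 of 2 in liver with TEAp, Trav17–CBE2 and INT2, and for 2 of 3 with TEAp in EACBE-/- cells. It did for 0 with Eα in liver and for 0 with Eα and Trav17–CBE2 in EACBE-/- cells. With a replicate block, the counts were 1 bin for Eα and 3 class pairs for Trav17–CBE2 in EACBE-/- cells. In liver they were 3 class pairs and 3 bins for Eα, 0 bins and 1 bin pair for TEAp, 0 class pairs, 0 bins and 0 bin pairs for Trav17–CBE2, and 2 class pairs and 3 bin pairs for INT2, and the INT2 share differed by -0.212 points.

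Leaving out 1 library at a time, the counts in EACBE-/- cells ranged from 2 to 4 class pairs, 1 to 3 bins and 1 to 4 bin pairs for Eα, 3 to 8 bins and 6 to 15 bin pairs for TEAp, and 1 to 3 class pairs for Trav17–CBE2. In liver they ranged from 0 to 9 bin pairs for Eα, 2 to 4 class pairs, 1 to 7 bins and 0 to 28 bin pairs for TEAp, 1 to 4 bins and 0 to 3 bin pairs for Trav17–CBE2, and 5 to 8 class pairs and 0 to 9 bin pairs for INT2. The INT2 share in liver ranged from -0.212 to 0.476 points, its slope from -0.0306 to 0.00824, and the TEAp slope in EACBE-/- cells from -0.00774 to 0.0189.

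The Eα share in liver turned to -13.6 points with all pairs in the 5 kb counts as denominator. Differences of slope changed sign over bins 1 to 6 for Eα (-0.0165) and TEAp (-0.00709) in EACBE-/- cells and for TEAp (-0.407), Trav17–CBE2 (-1.06) and INT2 (0.239) in liver, and over bins 6 to 11 for Trav17–CBE2 in EACBE-/- cells (-0.0514). Single log2 fold changes that changed sign, with a call in the main fit or the alternative, were in EACBE-/- cells 0.33 for Trac with Eα (Eα bait, TMM). In liver they were -0.24 within the array (Eα, all pairs in the 5 kb counts as library size), -0.15 for bin 10 with itself (Eα, TMM), -1.36 for the INTs, -11.2 for bin 6 (a fitted value, with 0 liver reads) and -0.44 for bin 8 (TEAp, without liver replicate 1, against 0.42, 1.14 and 1.44 without liver replicate 2), 0.50 with DESeq2 and 0.66 without pairs within a bin for the Tcrd segments (TEAp), and -0.0772 for bin 2 (TEAp, without pairs within a bin). For INT2 they were 0.0109 with TMM and 0.32 with DESeq2 within the array, 0.41 and 0.53 for bin 1, and 0.50 and 0.60 for bin 10.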

Other observations

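In the WT libraries of baits that had no EACBE-/- libraries, the bin chr14:54235001-54240000 was the partner of 1.52% of distal Jα reads with Eα bait2, 0.660% with Trdd2 and 0.335% with INT2. With Eα in liver it was the partner of 0.290% on average, from 2 reads in 1 library and 0 in the other. With TEAp, INT2 and Trav17–CBE2 in liver it had 0 reads.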
